A study of Mus musculus with 6 samples.

Results

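The genes described here are the protein-coding neighbours of Bmal1 (Arntl) on mouse chromosome 7, the chromosome that carries the floxed Bmal1 allele in the Bmal1;CKO animals. They were chosen by position and level: a start within about 8 Mb of Bmal1, the biotype protein coding, and a mean of at least 50 normalized counts over the 6 libraries, without Arntl itself, Adm, Wee1 and the ribosomal protein genes. Of 204 protein-coding genes in this window 90 had that mean, 6 of them were left out by name, and 84 remained of 55487 genes in the table. Bmal1 lies at chr7:113207465-113314126 on the plus strand (mm10/GRCm38), with 43 members on its centromeric side, the outermost starting at chr7:105371211, and 41 on its telomeric side, the outermost ending at chr7:121074572. The mean over both genotypes chose the members, so their levels are a description. The difference between the genotypes was not itself a criterion. In 82 of the 84 members the mean was at least 50 in each genotype. Syt17 (48.1 in control, 367 in Bmal1;CKO) and Stk33 (43.6 and 67.8) passed only through their level in Bmal1;CKO, which favours a positive difference.

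RNA was measured in vascular endothelial cells (VECs) that were sorted from P7.5 mouse retina as GFP and tdTomato double-positive cells, with 3 Bmal1;CKO and 3 control libraries. The Bmal1;CKO animals were Bmal1 FL/FL;tdTomato FL/+;Pdgf-icreER and the controls were tdTomato FL/+;Pdgf-icreER, and tamoxifen was given to both from P0.5 to P2.5. GFP comes with the Pdgf-icreER transgene, a tamoxifen-dependent Cre driven from the Pdgfb gene, and tdTomato appears after recombination of its stop cassette, so both groups share the transgene, the reporter and the drug. The control animals had no floxed Bmal1 allele. Loss of Bmal1 and the chromosome segment that was bred in with the floxed allele therefore cannot be told apart in these samples. The study's methods count 3 animals per genotype, and whether they were litter mates is not stated.

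BMAL1 is a transcription factor of the bHLH-PAS family that pairs with CLOCK and binds E-boxes, short DNA elements whose canonical form is CACGTG, to drive the oscillating genes of the circadian clock, among them its own inhibitors of the Period and Cryptochrome families. In endothelial cells the clock is known to take part in vessel growth, leukocyte traffic and vascular tone. A gene that lies beside Bmal1 on the chromosome need not be its target, so the neighbours serve as a local background against which the floxed locus itself can be read. Mouse chromosome 7 is acrocentric, and lower coordinates lie nearer to the centromere.

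The canonical E-box was searched for in the 250 bases before each annotated start site, since this is the element through which BMAL1 acts on its targets. RefSeq promoters (GRCm38.p6) were matched for 60 of the 84 members. CACGTG, which reads the same on both strands, was found in 7 of the 60 members and in 7 of their 85 promoter windows (8.24%), against 1978 of 32851 windows of the same length over all genes (6.02%). Counted by gene these shares were 11.7% of the members and 6.86% of all genes with a promoter (1854 of 27025), and no test was made of the difference. The 30 bases around the motif are shown for the members where this stretch overlaps no annotated exon. They are given 5′ to 3′ on the strand of the gene (plus for all), with the E-box in capitals. The list leaves out Akip1, where the 30 bases overlap 2 annotated exons.
Cckbr, chr7:105425613-105425642: ctccagcaggcgCACGTGtaaacacacaca
Eif3f, chr7:108934335-108934364: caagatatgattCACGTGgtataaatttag
Ipo7, chr7:110018166-110018195: gtgggagccagcCACGTGggccgtgtccgc
Ampd3, chr7:110772514-110772543: ccagcagtgggtCACGTGtcagctctgtaa
Mical2, chr7:112225659-112225688: agggcttcagccCACGTGcgtccgaagctg
Eef2k, chr7:120842788-120842817: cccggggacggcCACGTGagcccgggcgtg
The motif began between 31 bases (Eef2k) and 165 bases (Mical2) upstream of the start site. Mical2 is the only one of these 7 members that passed the test at an unadjusted p under 0.05, and its whole upstream window (chr7:112225586-112225835, plus strand) is therefore printed with the E-box in capitals.
Mical2: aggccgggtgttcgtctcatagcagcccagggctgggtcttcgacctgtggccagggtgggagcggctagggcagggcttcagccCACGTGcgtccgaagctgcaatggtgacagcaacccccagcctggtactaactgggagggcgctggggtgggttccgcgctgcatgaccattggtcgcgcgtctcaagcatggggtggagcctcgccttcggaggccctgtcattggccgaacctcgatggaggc
The windows of Usp47, Dcun1d3 and Btbd10 did not hold these 6 letters, which says nothing about other forms of the element or about more distant sites. A match of 6 bases is a description of the sequence and not a site of binding.

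The libraries held between 71145068 and 104017800 reads on genes, and between 21598 and 27904 genes had a read. All 10 endothelial markers examined were detected in every library, with a summed level of 176298 to 347358 normalized counts in control and 108324 to 222939 in Bmal1;CKO, and 10 of 10 had a negative difference without passing the test. Markers of other cells were present too: the 9 microglial markers summed to 1386180 to 4103350 in control and 2013410 to 3985840 in Bmal1;CKO, and the 8 rod markers to 332200 to 375074 and 179342 to 367581. All 8 rod markers had a negative difference (median -0.33), 2 of them at an unadjusted p under 0.05 by limma-trend, while 4 of 5 tested Müller glia markers, 4 of 6 pericyte markers and 1 of 5 erythroid markers had a positive one. In every library the microglial sum lay above the endothelial sum. The levels of the members are therefore those of the sorted fraction and not of endothelial cells alone. Control library 1 had the highest endothelial sum and the highest microglial sum. In bulk RNA of sorted cells, fewer cells of a type and less RNA per cell cannot be told apart, and the part of this admixture in the differences between the members was not tested. Bmal1 itself had 1700, 3489 and 2928 normalized counts in control libraries 1 to 3 and 1779, 2747 and 2415 in Bmal1;CKO libraries 4 to 6. The groups overlapped, and the log2 difference of -0.19 (SE 0.36, limma-trend, unadjusted p = 0.617) counts all exons of the gene, also those outside the floxed part. By ddPCR in sorted endothelial cells of the same genotypes, the paper reports a significant reduction of the Bmal1 transcript in the mutant. The part of other cells or of undeleted exons in the value given here was not tested.

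Few of the neighbours of Bmal1 differed between the sorted fractions of Bmal1;CKO and control, and their share was close to that of the genome. None of the 84 members reached a false discovery rate (FDR, adjusted over all 20459 genes tested) under 0.05 by limma-trend, and the lowest FDR among them was 0.883. At an unadjusted p under 0.05, 5 of 84 members differed (5.95%), against 4.92% of all tested genes and 4.91% of the protein-coding genes of all chromosomes with a mean of at least 50. Of these, 2 were higher in Bmal1;CKO (Syt17 and Xylt1, 2.38% of the members against 3.17% of all genes and 2.54% of those protein-coding genes) and 3 were lower (Dcun1d3, Usp47 and Mical2, 3.57% against 1.75% and 2.37%). The edgeR quasi-likelihood test gave no member and no other gene under an FDR of 0.05. At the unadjusted threshold it gave 1 member higher and 2 lower, against 1.9% of all genes higher and another 1.9% lower. The Wald test of DESeq2 gave 67 genes of the whole table (0.331%) under an FDR of 0.05, of which none was a member, no p-value for 2 members (Rassf10 and Dnhd1), and 3 members higher and 3 lower at an unadjusted p under 0.05, against 2.63% and 3.38% of all genes. In 10 members (11.9%) the 3 values of one genotype all lay beyond those of the other, 4 above and 6 below control, and over all tested genes that share was 11.2%, with 6.62% above and 4.54% below (11.7% of the protein-coding genes with a mean of at least 50). Both shares of the members lie near the background, and both moved with single libraries. At the unadjusted threshold there were 9 lower members without control library 1 (3.77% of all genes in that fit) and 1 without Bmal1;CKO library 4 (0.753%). There were 5 higher members without control library 3 (5.95%, against 7.3% of all genes, where 4.65% were lower) and 0 without Bmal1;CKO library 4 or 5 (1.55% and 1.31% of all genes). Without overlap there were 20 lower and 6 higher members when control library 1 was left out, against 12.8% and 12.9% of all genes. When control library 3 was left out there were 11 of each (13.1%), against 14.0% lower and 16.7% higher over all genes.

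**Figure D1:**
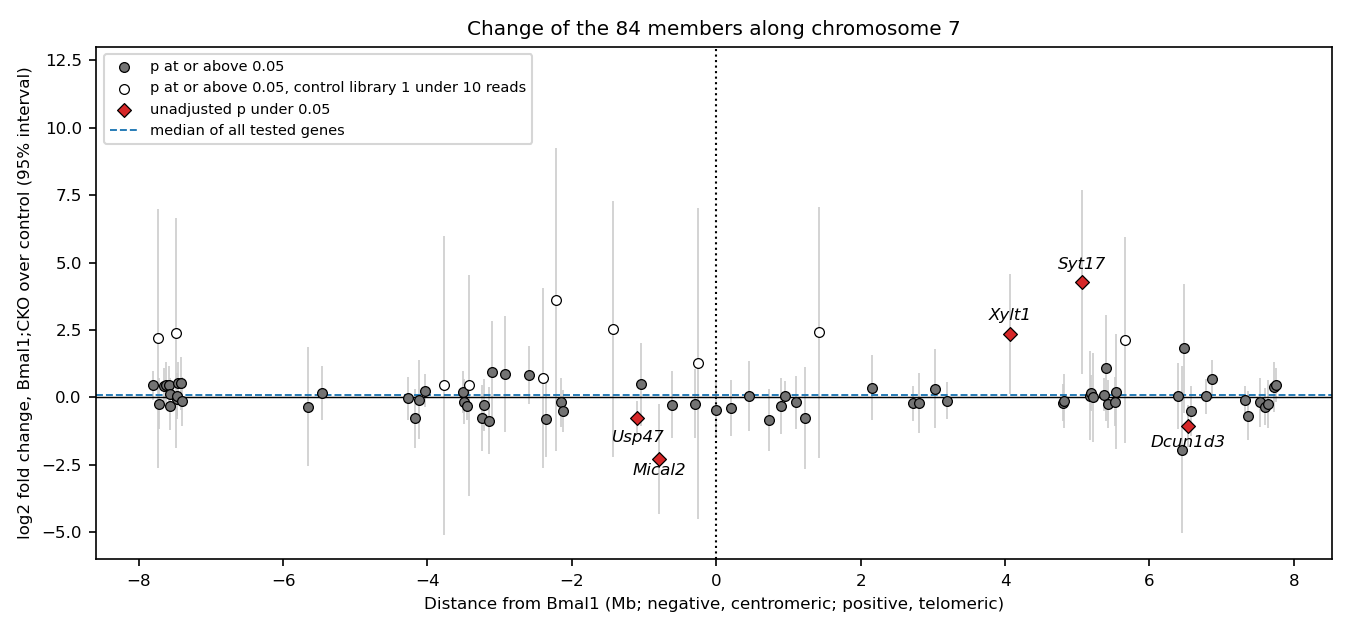
Difference of each of the 84 members between the genotypes (log2 fold change, y axis, with its 95% interval from limma-trend) against the distance from Bmal1 in Mb (x axis). The 5 members at an unadjusted p under 0.05 are named and lie on both sides. The white points and Syt17 are the 11 members with under 10 reads in control library 1. All 11 lie above 0, a sign that picking them for a low control library favours. The dashed line is the median of all tested genes (0.11).

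The sizes of the differences were as balanced as the calls. On the log2(normalized count + 1) scale 42 members had a positive and 42 a negative difference (Bmal1;CKO minus control), the median difference being 0.02 and quartiles of -0.28 and 0.46, against a median of 0.11 over all tested genes, of which 56.6% were higher. In edgeR with TMM the all-gene median was 0.14 lower, at -0.03, and the median of the members was -0.13, with 34 higher and 50 lower. A shift of like size was found by edgeR with the deposited size factors and by DESeq2. Within limma-trend the all-gene median also moved, by -0.11 with at least 10 reads in every library and by -0.10 without control library 1. The cause of the shift was not tested. Relative to the all-gene median the members stood at -0.09 by limma-trend and -0.10 by edgeR. The protein-coding genes of the rest of chromosome 7, taken by the same rule on level, numbered 941, and 65.5% of them had a positive difference, the median being 0.21 by limma-trend and 0.10 by edgeR. Their share of calls at an unadjusted p under 0.05 was 5.31% by limma-trend, and their groups did not overlap in 11.9%. The Wald test of DESeq2 gave 6 of 931 of them (0.644%) under an FDR of 0.05. Among the protein-coding genes of all chromosomes with a mean of at least 50 that share was 0.296%. Since all these genes come from the same 6 libraries, the medians are given side by side and no test was made between them.

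**Figure D2:**
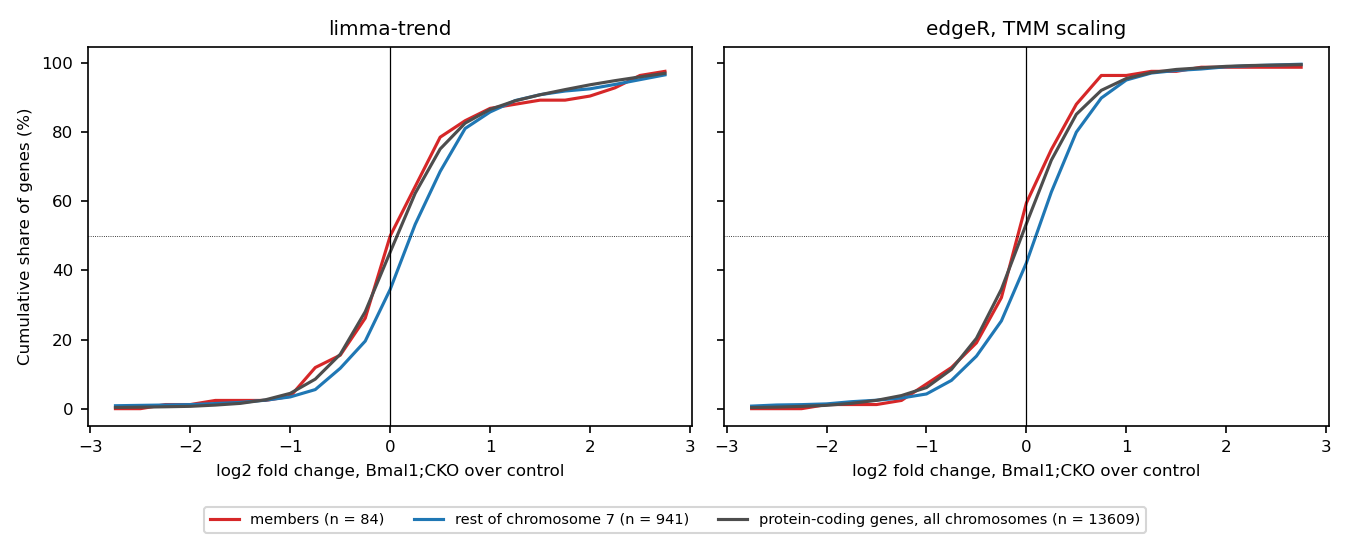
Cumulative share of genes (y axis, percent) whose log2 fold change between Bmal1;CKO and control lies at or under the value on the x axis, by limma-trend (left) and edgeR with TMM scaling (right). The curve of the 84 members runs close to that of the 13609 protein-coding genes of all chromosomes, and that of the 941 other genes of chromosome 7 lies to its right around 0.

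The precision behind these counts was limited. The median standard error of a member's log2 difference was 0.43, and in 17 of the 84 members the 95% interval lay wholly between -1 and 1, so that a difference of 1 on the log2 scale lay within the interval of each of the other members. An absolute log2 difference over 1 was seen in 14 members, 8 of which had under 10 reads in control library 1.

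Dcun1d3 had the lowest p-value of the members. It encodes a DCN1-like protein that helps to attach NEDD8 to cullins, the scaffolds of a large class of ubiquitin ligases, and lies 6.54 Mb telomeric of Bmal1 at chr7:119852796-119896298 (ENSMUSG00000048787). Its level was 1878, 1428 and 1363 normalized counts in control and 678, 860 and 694 in Bmal1;CKO. Every Bmal1;CKO library lay below every control library. The mean in Bmal1;CKO was 0.478 times that in control, a log2 difference of -1.06 (SE 0.33, limma-trend, unadjusted p = 0.0137), and edgeR gave -1.06 as well (unadjusted p = 0.0173). It is the only one of the 5 members that passed the unadjusted threshold whichever library was left out, with differences from -1.17 to -0.91. Lyrm1, a member that overlaps Dcun1d3 on the opposite strand, had a difference of -0.50 (SE 0.40). The amplification used does not mark the strand, so reads from the overlap of these genes cannot be told apart.

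Usp47, a ubiquitin-specific protease that acts on the DNA repair polymerase beta, lies 1.10 Mb centromeric of Bmal1 at chr7:112023504-112111661. It was measured at 5356, 4291 and 5304 normalized counts in control and 2307, 3207 and 3421 in Bmal1;CKO. The groups did not overlap, and the log2 difference was -0.76 (SE 0.27, limma-trend, unadjusted p = 0.0228). Its lowest library held 1640 reads. The difference stayed between -0.87 and -0.58 when each library was left out in turn, and the unadjusted threshold was missed without control library 3 (-0.71) and without Bmal1;CKO library 4 (-0.58).

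Mical2, a flavin monooxygenase that oxidises actin and thereby promotes its disassembly, lies 0.79 Mb centromeric of Bmal1 at chr7:112225856-112413106 and carries the E-box shown above. Its level was 466, 255 and 185 normalized counts in control and 42.2, 149 and 29.7 in Bmal1;CKO. All control libraries were higher than all Bmal1;CKO libraries, and the values within a genotype still differed by a factor of more than 2. The log2 difference was -2.27 (SE 0.88, limma-trend, unadjusted p = 0.0337) with a 95% interval of -4.31 to -0.23, and edgeR gave -2.03 (unadjusted p = 0.0517). The unadjusted threshold was missed without control library 1 (-1.91) or 2 (-2.34) and without Bmal1;CKO library 4 (-2.05) or 6 (-1.81). Of the other members with an E-box in the upstream window, Ipo7, an importin, had -0.86 (SE 0.53), Cckbr, a receptor for cholecystokinin and gastrin, had 2.19 (SE 2.06), and Ampd3, an AMP deaminase, had 0.72 (SE 1.43). Control library 1 held 1 read of Cckbr and 4 of Ampd3, and these differences were 0.04 and -0.15 by edgeR and -0.53 and -0.84 without that library. Akip1, Eef2k and Eif3f lay between -0.19 and -0.04.

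Both members that were higher at the unadjusted threshold lie telomeric of Bmal1 and had their lowest level in control library 1. Syt17, of the synaptotagmin family of membrane-trafficking proteins, had 1.23, 125 and 17.9 normalized counts in control and 512, 402 and 186 in Bmal1;CKO. The groups did not overlap, but control library 1 held a single read of this gene. Its log2 difference was 4.28 (SE 1.47, limma-trend, unadjusted p = 0.0207) and 2.92 by edgeR (unadjusted p = 0.065), and without control library 1 it was 2.79 (SE 0.89, limma-trend, unadjusted p = 0.0123). The threshold was missed without Bmal1;CKO library 4 (3.98) or 5 (4.15). Xylt1, the xylosyltransferase that starts glycosaminoglycan chains on proteoglycans, had 25.8, 109 and 332 normalized counts in control and 513, 717 and 352 in Bmal1;CKO. The highest control and the lowest Bmal1;CKO library of Xylt1 were close to each other. The log2 difference was 2.35 (SE 0.96, limma-trend, unadjusted p = 0.0419), and 1.74 by edgeR (unadjusted p = 0.0934). It was 1.41 without control library 1 and passed the threshold there, and it missed it without control library 2 (2.42) and without any of the 3 Bmal1;CKO libraries (2.10 to 2.61). An unnamed transcript, Gm45153, overlaps Xylt1 on the same strand, and reads of the overlap cannot be assigned with certainty.

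For a single gene, an exact permutation test of 3 against 3 libraries cannot go below p = 0.1 (two-sided). The 10 members whose groups did not overlap all stand at that value. Besides the 5 genes above these were Fam160a2 and Sbf2 among the higher and Tmem9b, Mosmo and Polr3e among the lower ones, of which the last 4 were singled out after their values were seen. Fam160a2, part of an adaptor between dynein and endosomes and the member nearest to the centromeric edge, had 4172, 4193 and 3536 normalized counts in control and 5824, 5582 and 4869 in Bmal1;CKO, with a log2 difference of 0.45 (SE 0.23, limma-trend, unadjusted p = 0.0867). The differences of Tmem9b, Mosmo and Polr3e were -0.33 (SE 0.21), -0.67 (SE 0.40) and -0.35 (SE 0.30), and that of Sbf2, a phosphoinositide phosphatase relative that acts on Rab GTPases, was 0.83 (SE 0.46).

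Along the chromosome the median difference was 0.14 over the 43 centromeric and -0.10 over the 41 telomeric members by limma-trend, and -0.06 and -0.19 by edgeR, so that the sign on the centromeric side turned with the model, as did that of the all-gene median. Relative to the all-gene median the centromeric members stood at 0.04 and -0.03 and the telomeric members at -0.21 and -0.16. Members within 4 Mb of Bmal1 had medians of -0.16 (centromeric, n = 23) and -0.20 (telomeric, n = 14). Beyond 4 Mb the medians were 0.15 (centromeric, n = 20) and 0.04 (telomeric, n = 27). Over the 10 members within 1 Mb of Bmal1 the median was -0.30, with 3 higher and 7 lower, and it was -0.34 by edgeR. The difference between near and far members was not tested, since members of a library are not replicates. Neighbouring members did not move alike: the correlation between the log2 differences of adjacent members was -0.19 over 83 pairs and -0.01 over the 71 pairs left when members under 10 reads in any library were removed, each a description over genes from the same libraries.

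The gene next to Bmal1 on the telomeric side is Btbd10, a BTB domain protein whose 3′ end faces that of Bmal1 at a distance of 0.0015 Mb. It had 917, 2280 and 2425 normalized counts in control and 1181, 1398 and 1191 in Bmal1;CKO. Control libraries 2 and 3 lay above all Bmal1;CKO libraries and control library 1 lay below them, which gave a log2 difference of -0.45 (SE 0.43, limma-trend, unadjusted p = 0.325). Far1, the peroxisomal reductase that makes fatty alcohols for ether lipids, followed at 0.20 Mb with 614, 1464 and 1420 in control and 774, 726 and 1012 in Bmal1;CKO. Again control library 1 was the lowest of all, and the difference was -0.39 (SE 0.45). Copb1, a subunit of the COPI vesicle coat, showed this order too, with 1400, 3445 and 4042 in control, 1685, 2280 and 2608 in Bmal1;CKO and a difference of -0.32 (SE 0.44).

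The other telomeric neighbours within 1 Mb differed among themselves. Rras2, a Ras-related GTPase, had 4337, 1892 and 1618 normalized counts in control and 1435, 825 and 2002 in Bmal1;CKO, with a difference of -0.83 (SE 0.49, limma-trend, unadjusted p = 0.133). Spon1, an extracellular matrix protein of the F-spondin type, ranged from 983 to 4584 in control and from 2374 to 3186 in Bmal1;CKO, and its difference was 0.05 by limma-trend (SE 0.56) and -0.20 by edgeR. Psma1, an alpha subunit of the 20S proteasome, had 14741, 13063 and 14278 in control and 17366, 15053 and 11579 in Bmal1;CKO. Its groups overlapped with a difference of 0.05 (SE 0.24) and a 95% interval of -0.52 to 0.61, which leaves out a difference of 1 in either direction.

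On the centromeric side the closest member was Rassf10, a Ras association domain protein, at 0.25 Mb. Its levels were 2.46, 172 and 0 normalized counts in control and 0, 90.7 and 89.0 in Bmal1;CKO, and a library of each genotype had no read. The mean of Rassf10 was 58.0 in control and 59.9 in Bmal1;CKO, and the log2 difference of 1.26 had a standard error of 2.48. Tead1, the DNA-binding partner of YAP and TAZ, had 931, 794 and 365 in control and 373, 870 and 503 in Bmal1;CKO, a difference of -0.24 (SE 0.55). Parva, an adaptor of integrin-linked kinase at focal adhesions, varied nearly as much within each genotype, with 3140, 1379 and 3627 in control and 1491, 1472 and 4059 in Bmal1;CKO and a difference of -0.27 (SE 0.53). Dkk3, a secreted protein of the Dickkopf family, had 2116 in control library 1 and 8508 to 12596 in the 5 other libraries, and a difference of 0.48 (SE 0.66) by limma-trend and 0.10 by edgeR.

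**Figure D3:**
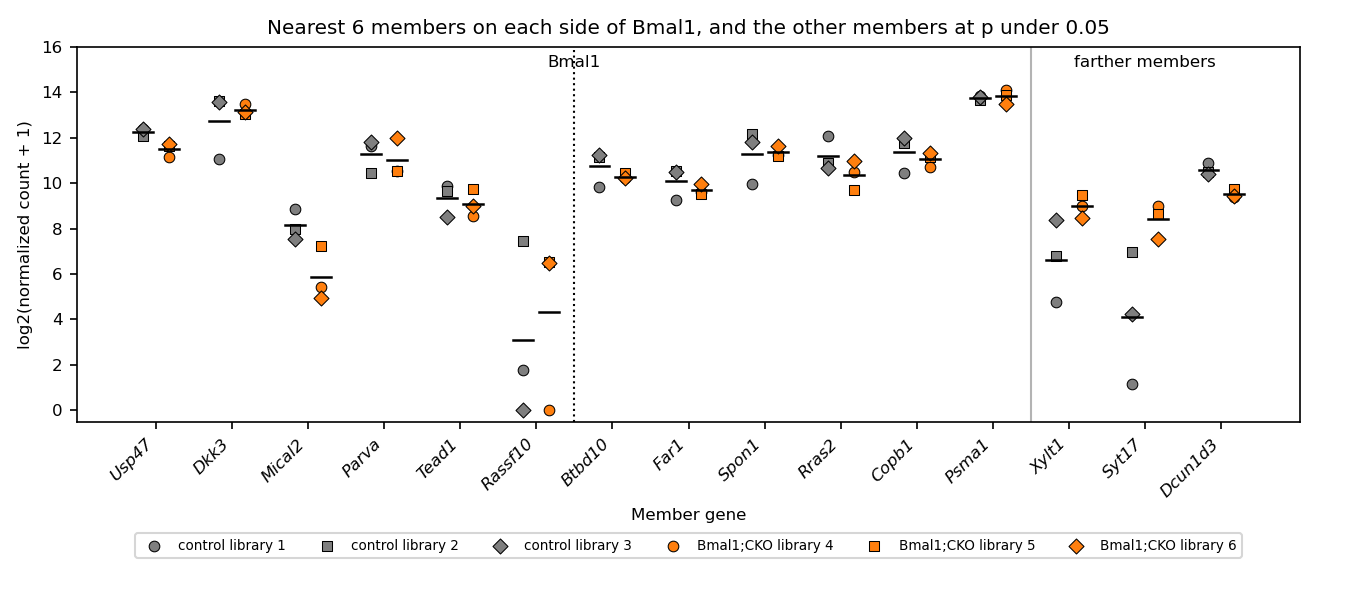
Level of the 6 members nearest to Bmal1 on each side, in order of position, and of Xylt1, Syt17 and Dcun1d3 (log2 of the normalized count + 1, y axis) in each of the 6 libraries, with the mean of each genotype as a bar. The genotypes separate in Usp47, Mical2, Xylt1, Syt17 and Dcun1d3, and control library 1 is the lowest point in Btbd10, Far1, Spon1, Copb1, Dkk3, Xylt1 and Syt17.

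Control library 1 had the lowest of the 6 values in 31 of the 84 members (36.9%), against 31.8% of all tested genes. The same library had the highest value in 22 members, also more than any other library. The paper reports that its control sample tdTom1 stood apart in principal-component analysis, with no technical fault found. Whether control library 1 is that sample is not known, since the columns carry no sample name. In 11 members (13.1%) it held under 10 reads, a state found in 20.6% of all tested genes, 10.8% of the protein-coding genes with a mean of at least 50 and 11.1% of such genes on the rest of chromosome 7, and all 11 had a positive log2 difference, with a median of 2.19 by limma-trend and 0.08 by edgeR. These 11 were picked for a low control library while the rule asked for a mean of at least 50. That choice itself favours a positive difference on the log scale, so their shared sign is no finding. Among these 11 was Galnt18, with 3.69, 1496 and 1469 normalized counts in control and 1259, 1109 and 1471 in Bmal1;CKO, and Gprc5b, an orphan G protein-coupled receptor, with 2.46, 262 and 247 in control and 229, 332 and 251 in Bmal1;CKO. In both the remaining control libraries lay within or next to the range of the Bmal1;CKO libraries. Galnt18 was chosen after its values were seen.

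Without control library 1 more members were called lower in Bmal1;CKO, while the median of the members fell along with that of all genes. In that fit, 9 members were lower at an unadjusted p under 0.05 (10.7% of the members, against 3.77% of all tested genes) and 2 were higher (2.38% against 4.88%), by limma-trend with 2 control libraries. The 9 were Syt9, Ric3, Nrip3, Rnf141 and Usp47 on the centromeric side and Btbd10, Far1, Copb1 and Dcun1d3 on the telomeric side. Among them Syt9, Ric3, Nrip3 and Rnf141 were singled out after their values were seen. Btbd10 then had a log2 difference of -0.91 (SE 0.30, limma-trend, unadjusted p = 0.0148), Far1 of -0.80 (SE 0.34, unadjusted p = 0.045) and Copb1 of -0.79 (SE 0.31, unadjusted p = 0.0312). The lowest p in that fit was that of Rnf141, a ring finger protein with 337, 1414 and 1287 normalized counts in control and 397, 595 and 503 in Bmal1;CKO, with -1.45 (SE 0.38, limma-trend, unadjusted p = 0.00405). In 20 members both remaining control libraries lay above all Bmal1;CKO libraries, a pattern seen in 12.8% of all tested genes, and in 6 members they lay below, against 12.9%. None of these members had an FDR under 0.05 (lowest 0.477). The medians of the 84 members and of all genes in this fit were -0.07 and 0.00, against 0.02 and 0.11 with all libraries. The centromeric median was -0.11 and the telomeric median -0.04, against 0.14 and -0.10 with all libraries. The share of calls among protein-coding genes with a mean of at least 50 was not taken in this fit.

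**Figure D4:**
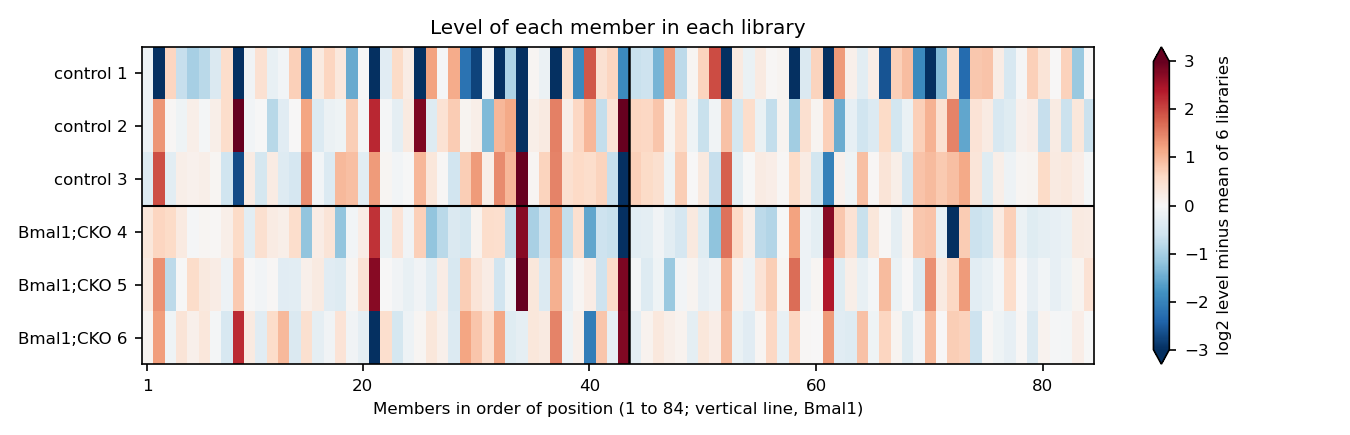
Level of each of the 84 members, in order of position (x axis; the vertical line marks Bmal1), in each library (rows), as the log2 level minus the mean of the 6 libraries (colour scale in log2 units, cut at -3 and 3). Dark blue cells gather in the row of control library 1, which is the lowest library in 31 members and the highest in 22.

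Members were also grouped by what their products do. Of 11 members with roles in actin, adhesion and cell polarity, 7 had a positive and 4 a negative difference, the median was 0.15 on the log2 scale, and Mical2 was the only one at an unadjusted p under 0.05. The 4 with the highest mean normalized count, not corrected for length, were Apbb1, Spon1, Parva and Swap70. Apbb1, an adaptor of the amyloid precursor protein, had 10713, 24365 and 23421 normalized counts in control and 20975, 31501 and 23872 in Bmal1;CKO, a difference of 0.46 (SE 0.37). Swap70, an actin-binding partner of Rac, had 266, 2087 and 4435 in control and 1965, 2418 and 3249 in Bmal1;CKO, and its difference was 0.88 (SE 0.93) by limma-trend and 0.16 by edgeR.

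The 14 members of membrane traffic had 6 higher and 8 lower, with a median of -0.14, and Syt17 alone passed the unadjusted threshold. Arl6ip1, a protein that shapes the endoplasmic reticulum, and Cavin3, part of the coat of caveolae, were the most abundant members per length, at 13067 and 12983 normalized counts per kb of exon in control, where the median of the 84 members over all 6 libraries was 266 per kb. Arl6ip1 ranged from 21537 to 40847 normalized counts in control and from 26228 to 29820 in Bmal1;CKO (log2 difference -0.19, SE 0.30). Cavin3 spanned 15312 to 29824 and 11021 to 28387 (-0.24, SE 0.41), and Arfip2, a Golgi protein that binds ARF and RAC GTPases, 5987 to 9143 and 7847 to 9544 (0.14, SE 0.25). In each of these 3 genes the genotypes overlapped. Arfip2 overlaps Timm10b on the opposite strand.

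In protein synthesis and turnover, 8 of 10 members had a negative difference, and the median was -0.24 by limma-trend and -0.32 by edgeR, and 2 of the 8, Dcun1d3 and Usp47, passed the unadjusted threshold. Eif4g2, a translation initiation factor that lacks the cap-binding contact of its relatives, had 15764, 21469 and 28226 normalized counts in control and 11442, 13415 and 21230 in Bmal1;CKO, a difference of -0.52 (SE 0.33, limma-trend, unadjusted p = 0.161). Mrpl17 of the mitochondrial ribosome had a difference of -0.15 (SE 0.39). The ubiquitin ligase Trim3 was among the 2 with a positive difference, at 0.46 (SE 0.30), and Psma1 was the other.

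Of the 14 members of transcription and RNA, 5 were higher and 9 lower with a median of -0.15, and none had an unadjusted p under 0.05. Those with the highest mean normalized count, not corrected for length, were Knop1, a lysine-rich nucleolar protein, at -0.16 (SE 0.39), Lmo1, a LIM-only cofactor, at 0.25 (SE 0.27), Thumpd1, which takes part in tRNA acetylation, at 0.04 (SE 0.52), and Ctr9, a subunit of the PAF1 complex, at -0.19 (SE 0.39). Ctr9 had 3227, 3537 and 3220 normalized counts in control and 1589, 3971 and 3952 in Bmal1;CKO, and without library 4 its difference was 0.25. Thumpd1 was at -0.19 by edgeR.

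Metabolic, mitochondrial and lysosomal genes had 8 members higher and 6 lower, with a median of 0.13, and Xylt1 alone passed the unadjusted threshold. Crym, the thyroid hormone-binding mu-crystallin, had 18610, 20281 and 23609 normalized counts in control and 42976, 37806 and 22217 in Bmal1;CKO. Libraries 4 and 5 lay above all controls and library 6 within their range, with a difference of 0.67 (SE 0.31, limma-trend, unadjusted p = 0.0623) and an unadjusted p = 0.0488 by edgeR. The lysosomal enzymes Tpp1, a tripeptidyl peptidase, and Smpd1, the acid sphingomyelinase, were at 0.55 (SE 0.32) and 0.43 (SE 0.29), and Gde1, a glycerophosphodiester phosphodiesterase, at 0.10 (SE 0.27). Smpd1 had 7024, 10480 and 12864 in control and 13661, 11250 and 14941 in Bmal1;CKO, and its groups overlapped through library 5.

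All 4 members listed under vascular, immune and secreted signalling, Dkk3, Rassf10, Gprc5b and Igsf6, had positive differences, and none passed the unadjusted threshold. Their median was 0.87 by limma-trend and 0.27 by edgeR, and control library 1 held under 10 reads of Rassf10 and Gprc5b. Igsf6, an immunoglobulin superfamily receptor of myeloid cells, had 7486, 4723 and 7101 normalized counts in control and 8861, 10097 and 7409 in Bmal1;CKO, with a difference of 0.47 (SE 0.27, limma-trend, unadjusted p = 0.127). Of the 9 microglial markers 8 had a positive difference too, with a median of 0.40, and the part of these cells in the level of Igsf6 was not tested. The 17 members in no list had 10 higher and 7 lower and a median of 0.06.

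At the margins of the rule the members just above the mean of 50 were Stk33 (55.7 over the 6 libraries), Rassf10 (59.0) and Dnhd1 (90.8), and the genes just below it were Calca (38.3), Lyve1 (38.2) and Olfml1 (26.2). Lyve1, a hyaluronan receptor of lymphatic endothelium and some macrophages, had 0, 0.93 and 2.86 normalized counts in control and 0, 48.4 and 177 in Bmal1;CKO, so that its level was carried by 2 libraries. At the window's ends Fam160a2 and Igsf6 were the outermost members. Beyond them lay Hs3st2 on the telomeric side, with 0, 108 and 229 in control and 30.9, 68.2 and 85.7 in Bmal1;CKO. On the centromeric side the next gene was Trim30d (chr7:104470014-104507849), of a family of immune regulators. It had 1582, 419 and 275 normalized counts in control and 14.1, 0.86 and 27.2 in Bmal1;CKO. Its log2 difference of -5.94 (SE 1.28, limma-trend, unadjusted p = 0.00187) was larger in size than that of any member. No gene had an FDR under 0.05 in this fit. These edge values are descriptions, and the genes outside the limits belong to none of the counts above.

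As a share of all normalized counts the 84 members made up 0.348 to 0.546% in control and 0.417 to 0.490% in Bmal1;CKO. The levels of the members correlated between libraries with a Pearson coefficient of 0.801 to 0.809 within control, 0.864 to 0.926 within Bmal1;CKO and 0.762 to 0.906 between the genotypes, over the 84 genes of each pair of libraries. The lowest coefficient within Bmal1;CKO lay above the highest within control. Of the 84 members 30 overlap another gene with a mean of at least 10 normalized counts, and their values hold reads that cannot be assigned to a strand.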

How the data were processed

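RNA from 3 Bmal1;CKO and 3 control samples of sorted VECs was amplified (Smart v4), made into Nextera XT libraries and sequenced. According to the study's methods, the authors ran FastQC, Trimmomatic, Bowtie (mm10, Ensembl GRCm38 v87), featureCounts and DESeq2; versions and the strand setting are not given in the sources used here. The authors deposited a normalized count per gene and library (a signal: reads divided by the library's size factor). The deposited table also holds the authors' log2 fold change, its error, a test score and p-value columns, none of which was used. Its columns name the genotype but match no single sample label, so each was used as a replicate of its genotype.

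Whole reads were recovered for 100% of values (tolerance 0.01 read), with size factors of 0.711 to 1.40. Starts were raised by 1 to 1-based coordinates; all 84 members have the same bounds in GENCODE M21. The 20459 genes that reached 10 reads in 3 or more libraries were tested with limma-trend (limma 3.58.1, R 4.3.3) on log2(normalized count + 1), Benjamini-Hochberg over all genes; on this scale a library with few reads weighs strongly, and differences of low genes can exceed those of the count models. Alternatives were edgeR 4.0.16 (TMM or the deposited size factors), DESeq2 1.42.0, other pseudocounts, filters and limits, and leaving out each library. The fit was also run on simulated counts with the same dispersion for all genes and no library set apart from the others. That setting differs from these data, so it does not speak to their precision. The rule for naming took members at an unadjusted p under 0.05, the 6 nearest on each side and those at the limits of the rule. It also took up to 4 per role list with the highest mean normalized count. Members with an E-box in the upstream window or an overlap with a named member were added. Other members were named after their values were seen, as stated where they appear. The members, role lists and marker lists were chosen with earlier results of these data known. Tables used Python 3.11.15. The libraries were amplified without molecular identifiers, so a read is not an independent molecule.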

Additional observations from a re-analysis of the deposited data

How the results depend on the processing

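No paired analysis was possible because the columns of the table carry no number shared with the replicate numbers of the sample labels. No member had an FDR under 0.05 in any setting. The number of members higher at an unadjusted p under 0.05 was 2, and it was 1 with at least 10 reads in every library and 1 by edgeR with TMM, 0 by edgeR with the deposited size factors, 0 for members with a mean of at least 500 and 0 within 4 Mb. Members whose groups did not overlap were 4 higher and 6 lower, against 2 higher among the 65 members with a mean of at least 500 and 1 higher and 3 lower among the 37 within 4 Mb (10.8%, against 11.9% of all members). The median of the members was 0.02 and turned to -0.12 by DESeq2, -0.13 by edgeR with TMM, -0.12 with the size factors, -0.12 with at least 10 reads in every library, -0.14 at a mean of at least 500 and -0.19 within 4 Mb. The all-gene median moved alike in the first 3 settings (by -0.13, -0.14 and -0.13) and by -0.11 with at least 10 reads in every library, so these turns are not particular to the members. The centromeric median of 0.14 became -0.070, -0.061, -0.070 and -0.083 in the first 4 of these settings and 0.055 at a pseudocount of 10. Leaving out each library gave 0 to 5 members higher and 1 to 9 lower at the unadjusted threshold. Over all genes the share of higher calls ran from 1.31% to 7.3% and that of lower calls from 0.753% to 4.65%. Without overlap there were 5 to 11 members higher and 6 to 20 lower. Over all genes these shares ran from 9.62% to 16.7% higher and from 6.83% to 14.0% lower. It gave medians of -0.066 to 0.091 for all, -0.11 to 0.24 for centromeric and -0.12 to 0.058 for telomeric members. The difference of Bmal1 itself was -0.49 when control library 1 was left out and 0.029 when control library 2 was.

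Spon1 turned to -0.20, Thumpd1 to -0.18 by DESeq2 and -0.19 by edgeR, and Dnhd1 to -0.074 by DESeq2, -0.045 by edgeR with TMM and -0.073 with the size factors. With each library left out, the sign turned in 40 of the 84 members, among them Cckbr (-0.53 to 3.71), Ampd3 (-0.84 to 1.62), Galnt18 (-0.22 to 3.94), Eif3f (-0.26 to 0.27), Akip1 (-0.40 to 0.10), Eef2k (-0.58 to 0.06), Rassf10 (-0.27 to 3.44), Tead1 (-0.65 to 0.033), Dkk3 (-0.37 to 0.91), Spon1 (-0.63 to 0.48), Psma1 (-0.086 to 0.21), Swap70 (-0.29 to 1.74), Cavin3 (-0.58 to 0.10), Arfip2 (-0.044 to 0.26), Mrpl17 (-0.45 to 0.17), Knop1 (-0.44 to 0.27), Thumpd1 (-0.59 to 0.45), Ctr9 (-0.41 to 0.25), Gde1 (-0.074 to 0.23) and Stk33 (-1.53 to 2.67). The cause of these turns was not tested. The 5 members at the unadjusted threshold kept their sign in every setting that gave them a value: Dcun1d3 ran from -1.17 to -0.91, Usp47 from -0.87 to -0.58, Mical2 from -2.95 to -1.81, Xylt1 from 1.41 to 3.22 and Syt17 from 2.79 to 5.71 with each library left out. At this depth 72 of 84 members had at least 10 reads in every library, and the interval of most members reached beyond 1 on the log2 scale with 3 libraries per genotype.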
